A study of Rattus norvegicus with 4 samples.

Results

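The Ucp1-high adipocyte nuclei were chosen by their measured Ucp1 UMIs over total UMIs, as the top 10% of adipocyte nuclei in each of 4 single-nucleus RNA libraries of rat brown-type fat. An adipocyte nucleus was a barcode with at least 1000 UMIs (unique molecular identifiers, each counting 1 captured RNA molecule), at least 5 UMIs over the 6 adipocyte genes Adipoq, Plin1, Lipe, Pparg, Cidec and Acsl1, and 0 UMIs over 7 genes of other cell types (Cyyr1, Ptprb, Pdgfra, Ptprc, Myh11, Cdh19 and Mki67). The rule found 81575 adipocyte nuclei among 125904 barcodes. Of these, 8157 were Ucp1-high and 73418 remained as the comparison. The study profiled frozen fat from male Dahl salt-sensitive rats of strain SS/HsdMcwiCrl, 16 weeks old, kept at 22 °C and given no treatment in the labels. It covered the perivascular fat around the thoracic aorta (taPVAT, 2 libraries) and subscapular brown adipose tissue (BAT, 2 libraries). The first and second taPVAT libraries gave 2876 and 908 Ucp1-high nuclei, with 2475 and 1898 from the first and second BAT libraries. Values for the 4 libraries follow that order. Nothing in the labels says whether the replicates came from separate rats. P-values of Ucp1-high against remaining nuclei measure how the difference within a library varied from library to library. Those of taPVAT against BAT within Ucp1-high nuclei measure the spread between libraries. Either spread may be technical.

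UCP1 sits in the inner mitochondrial membrane of brown adipocytes and lets protons flow back without making ATP, so that respiration is released as heat. In brown fat, noradrenaline acts on β-adrenergic receptors, raises cAMP and activates protein kinase A, which starts lipolysis and induces Ucp1 through CREB, ATF2 and the coactivator PGC-1α. Adipocytes of one brown fat depot are known to differ in Ucp1 level, and the fat around the rodent thoracic aorta resembles brown fat in its lipid droplets and mitochondria.

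Ucp1 chose the nuclei, so its level describes the rule and was not tested. Levels are counts per 1e6 UMIs of the summed nuclei (CPM). Ucp1 stood at 2559, 1700, 3691 and 2360 CPM in the Ucp1-high nuclei and at 792, 332, 1318 and 486 CPM in the remaining nuclei. The last member inside the boundary and the first nucleus outside it were nearly equal, with 1959 and 1958 CPM in taPVAT replicate 1 and 1530 and 1528 CPM in BAT replicate 2. The median Ucp1-high nucleus held 7, 7, 13 and 6 Ucp1 UMIs, and the highest held 42, 37, 61 and 47. Nuclei with fewer than 5 Ucp1 UMIs made up 19.0%, 23.8%, 0.929% and 32.7% of the Ucp1-high nuclei, so counting error bears on which nuclei were chosen. When every nucleus was thinned to 1000 UMIs and ranked again, between 52.8% and 55.5% of the Ucp1-high nuclei were chosen again.

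Ucp1 was also counted in barcodes of another cell type. Whether it came from free RNA or from barcodes that hold more than 1 nucleus was not tested. The background was read in barcodes with at least 5 UMIs over vascular endothelial genes, a cell type that lacks UCP1, of which the libraries held 528 to 2344. Ucp1 stood at 696, 360, 1117 and 475 CPM there. The Ucp1-high nuclei were thus 3.30 to 4.96 times above the endothelial barcodes, whereas the remaining adipocyte nuclei stood at 92.2% to 118% of them. After thinning to 1000 UMIs, 95.2%, 82.6%, 98.7% and 94.3% of Ucp1-high nuclei held a Ucp1 UMI, against 45.3%, 25.6%, 52.2% and 30.7% of endothelial barcodes and 52.7%, 28.1%, 67.0% and 37.2% of remaining adipocyte nuclei. Since Ucp1 ranked the nuclei, the distance between the 2 states follows from the rule. Among the remaining nuclei, those ranked just under the boundary (the next 10% by Ucp1 share) stood at 1703, 884, 2572 and 1271 CPM. Their place above the endothelial barcodes also follows from ranking by Ucp1, since the endothelial barcodes were not ranked.

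**Figure D1:**
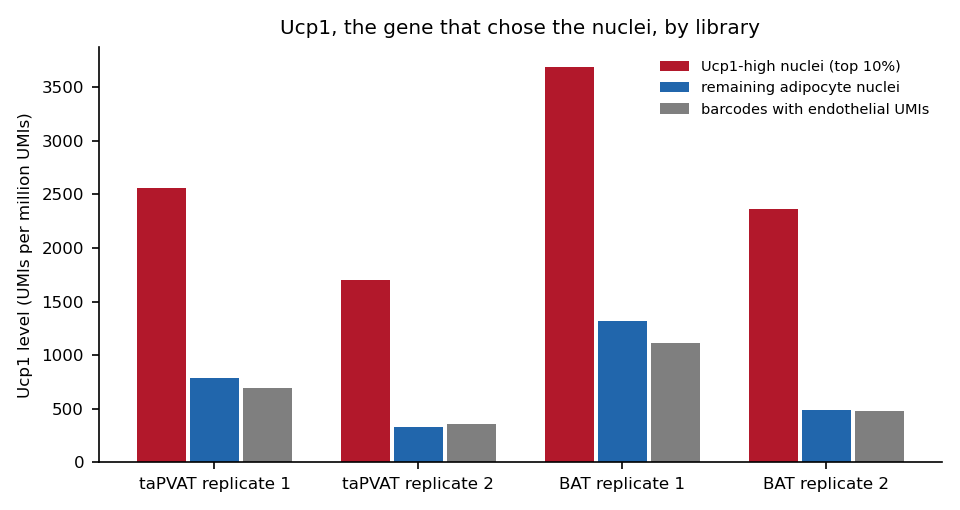
Ucp1 level in CPM for each library (taPVAT replicates 1 and 2, BAT replicates 1 and 2) in Ucp1-high nuclei, remaining adipocyte nuclei and endothelial barcodes that serve as background. Ucp1-high nuclei reach 1700 to 3691 CPM, and the remaining nuclei lie close to the endothelial barcodes.

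The adipocyte label was checked against its markers. Adipoq, the adiponectin gene, reached in Ucp1-high nuclei 0.99 to 1.18 times its level in the endothelial barcodes. The same ratio was 1.19 to 1.5 for Plin1, a coat protein of the lipid droplet, 1.21 to 1.39 for Lipe, hormone-sensitive lipase, and 1.15 to 1.29 for Pparg, the master regulator of fat cells. Adipoq was thus about as abundant in barcodes that carried endothelial RNA, and the other 3 genes were higher in the Ucp1-high nuclei in each library by at most 1.5 times. The rule itself selected on these genes. The threshold of 5 adipocyte UMIs was met by 92.0% to 98.0% of all barcodes with 1000 UMIs, and the libraries held 14765 to 44637 barcodes against a targeted recovery of 10000 cells in the labels' protocol. The absence of other types in the Ucp1-high nuclei rests on the 7 genes that the rule set to 0.

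In depth, Ucp1-high nuclei had medians of 2588, 4317, 3514 and 2554 UMIs against 3248, 4893, 4036 and 2839 in the remaining nuclei. This depth is part of the rule, since total UMIs form the denominator of the Ucp1 share. The median mitochondrial share was 7.64%, 7.04%, 7.12% and 10.3% of UMIs against 6.99%, 6.25%, 6.69% and 9.90%, a difference of 0.571 ± 0.185 percentage points (SD, n = 4). It was higher in 4 of 4 libraries, for which the exact two-sided sign-flip permutation test gives p = 0.13 after rounding, the smallest it can give. With Ucp1-high nuclei chosen within bins of equal depth, here called depth-matched, the mean difference was -0.136, lower in 3 of 4 libraries and higher in taPVAT replicate 2 (6.44% against 6.30%). For some gene lists below, counts are also given in depth-matched nuclei, nuclei thinned to 1000 UMIs or nuclei up to the median mitochondrial share. For other lists the part of depth and mitochondrial share is not shown. Between 0.853% and 1.29% of barcodes in the smaller library of a pair also occurred in the other. No doublet caller was run.

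Summed counts of Ucp1-high and remaining nuclei were compared within libraries, with Ucp1 left out of the table and of the totals. Of 13502 genes tested, 1591 (11.8%) differed by edgeR's quasi-likelihood test at a Benjamini-Hochberg adjusted p under 0.05. All adjusted p-values below come from that test and adjustment. The 874 genes that rose (6.47% of those tested) had a median log2 fold change of 0.21, and 11 of them rose at least 2-fold. The 717 genes that fell (5.31%) had a median of -0.52, and 173 of them fell at least 2-fold. Levels of the 2 states did not overlap across libraries for 330 genes (2.44%). Without BAT replicate 1, 975 genes were called. Of the 30 named below as the largest rises and falls, 27 kept their call on leaving out each library in turn. The naming rule took only genes that were called and moved the same way in 4 of 4 libraries, so that trait was fixed for each.

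Immediate early genes were among the largest rises. Atf3, a transcription factor of the immediate response to stress and hormones, stood at 7.55, 38.0, 4.85 and 111 CPM in Ucp1-high nuclei and at 4.31, 19.5, 2.69 and 38.8 CPM in the remaining nuclei. It was higher in every library, although the 2 states overlapped because the replicate 2 libraries were far above the replicate 1 libraries in both. Its log2 fold change was 1.22 ± 0.111 (SE, n = 4 libraries; adjusted p = 2.6e-06). Nr4a1, an orphan nuclear receptor that adrenergic signals induce in brown fat, stood at 123, 255, 99.2 and 308 CPM against 63.5, 182, 65.8 and 240 CPM. It rose by 0.64 ± 0.063 (adjusted p = 6.1e-06). Its relative Nr4a3 stood at 71.9, 224, 49.0 and 301 CPM against 42.2, 187, 31.8 and 230 CPM and rose by 0.54 ± 0.059 (adjusted p = 1.9e-05). Both receptors were higher in 4 of 4 libraries, as the naming rule required, with states that overlapped across libraries.

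Of the 11 immediate early and heat shock genes tested, 6 rose and 0 fell (median 0.54, against 0.00 for all genes, of which 6.47% rose): Atf3, Nr4a1, Nr4a3, Jun and the chaperone genes Dnajb1 and Hsph1. Fosb, a subunit of the AP-1 factor, did not pass, at 9.90, 15.7, 5.15 and 157 CPM against 26.3, 5.45, 6.56 and 18.9 CPM. It was thus higher in the replicate 2 libraries and lower in the replicate 1 libraries. Fos stood at 12.9, 17.0, 4.85 and 72.8 CPM against 28.4, 6.31, 7.01 and 16.4 CPM, and Egr1 at 6.72, 10.5, 5.46 and 49.6 CPM against 19.3, 5.50, 5.11 and 19.5 CPM. Neither passed the test. Without BAT replicate 2 the log2 fold changes of Fos, Fosb and Egr1 were -0.41, -0.46 and -0.47, and without taPVAT replicate 1 they were 1.37, 2.02 and 1.0 and passed. Jun was higher in 3 of 4 libraries and lost its call without either BAT library or taPVAT replicate 2, and Dnajb1 lost its call without BAT replicate 2. With thinned nuclei 3 of the genes rose (3.59% of all genes), and without nuclei that held any Kcnip1 UMI 8 rose and 0 fell (5.0% and 3.64% of all genes).

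Other response genes stood among the 15 largest rises. Btg2, an antiproliferative gene of the early response, stood at 107, 133, 94.6 and 252 CPM against 97.0, 92.6, 73.3 and 146 CPM and rose by 0.51 ± 0.072 (adjusted p = 0.00018). Ier2, another early response gene, rose by 0.69 ± 0.183 (adjusted p = 0.020), mostly in BAT replicate 2, where it stood at 32.1 against 11.7 CPM. Its call was lost in depth-matched nuclei, where it was at 0.54 (adjusted p = 0.089), in thinned nuclei, at 0.23, and without BAT replicate 2, at 0.25. Cdkn1a, the cell cycle inhibitor p21, rose by 0.66 ± 0.082, and Bcl3, a cofactor of NF-κB, by 0.51 ± 0.075. The call for Cdkn1a was lost in thinned nuclei.

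CREB binds the full cAMP response element TGACGTCA, which reads the same on both strands. In RefSeq promoters of the rat build GRCr8, taken from 250 bases before to 50 after the start, 612 of 33469 (1.83%) held it. Of the 15 genes with the largest rises 11 had an entry, and 2 of those, Ier2 and Btg2, held the element. Ppargc1a, which encodes PGC-1α, rose as well but is not among these 15, and it also held the element. The 250 bases before the start of these last 2 genes are shown, since cAMP is well known to induce Ppargc1a through this element and Btg2 carries the same letters. Capitals mark the element. Binding was not measured, so the match is only a description.
Ppargc1a, chr14:63634058-63634307, + strand: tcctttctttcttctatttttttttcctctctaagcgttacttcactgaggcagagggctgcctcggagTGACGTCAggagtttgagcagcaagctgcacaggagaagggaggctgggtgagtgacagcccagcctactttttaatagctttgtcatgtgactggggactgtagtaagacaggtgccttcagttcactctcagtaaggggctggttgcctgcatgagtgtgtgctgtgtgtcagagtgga
Btg2, chr13:48087691-48087940, - strand: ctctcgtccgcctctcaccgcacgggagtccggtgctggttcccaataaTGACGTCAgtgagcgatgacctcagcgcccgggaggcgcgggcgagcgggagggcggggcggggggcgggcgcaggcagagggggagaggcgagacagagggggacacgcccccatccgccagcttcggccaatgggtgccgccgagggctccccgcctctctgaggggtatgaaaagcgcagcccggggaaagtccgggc

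Irs2, Pdk4, Noct and Sdc4 were also among the 15 largest rises. Irs2, which couples the insulin receptor to PI3 kinase, stood at 226, 151, 280 and 212 CPM in Ucp1-high nuclei against 160, 88.2, 238 and 125 CPM. It rose by 0.59 ± 0.066 (adjusted p = 1.9e-05), and was higher in every library. Pdk4, the kinase that shuts pyruvate dehydrogenase and so favours fat as fuel, stood at 822, 404, 1178 and 344 CPM against 688, 252, 975 and 188 CPM and rose by 0.54 ± 0.073 (adjusted p = 9.9e-05). Noct, nocturnin, a rhythmic regulator of nutrient metabolism, stood at 93.5, 60.7, 113 and 76.7 CPM against 67.2, 32.2, 87.1 and 33.3 CPM and rose by 0.71 ± 0.094 (adjusted p = 9.6e-05). Sdc4, the heparan sulfate proteoglycan syndecan-4, stood at 302, 314, 233 and 532 CPM against 221, 200, 175 and 317 CPM and rose by 0.61 ± 0.047 (adjusted p = 4.3e-07). Each of these 4 was higher in 4 of 4 libraries, as the naming rule required, and each overlapped across libraries. Phospho1, a phosphatase of the phosphocholine pathway, was the 1 gene among the 15 rises whose states did not overlap, at 28.5 to 42.5 CPM against 20.4 to 27.8 CPM (log2 fold change 0.49 ± 0.076), but it did not pass in thinned nuclei. Dhrs9, a retinol dehydrogenase, rose by 0.54, the carbonic anhydrase-related Ca8 by 0.52 and the membrane protein gene Shisa4 by 0.54. Ca8 lost its call without BAT replicate 2. Shisa4 lost its call without BAT replicate 1 (0.55) and without nuclei that held UMIs of other cell types (0.53, adjusted p = 0.053), with folds about as large, and in thinned nuclei (0.32) and among nuclei up to the median mitochondrial share (0.34).

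**Figure D2:**
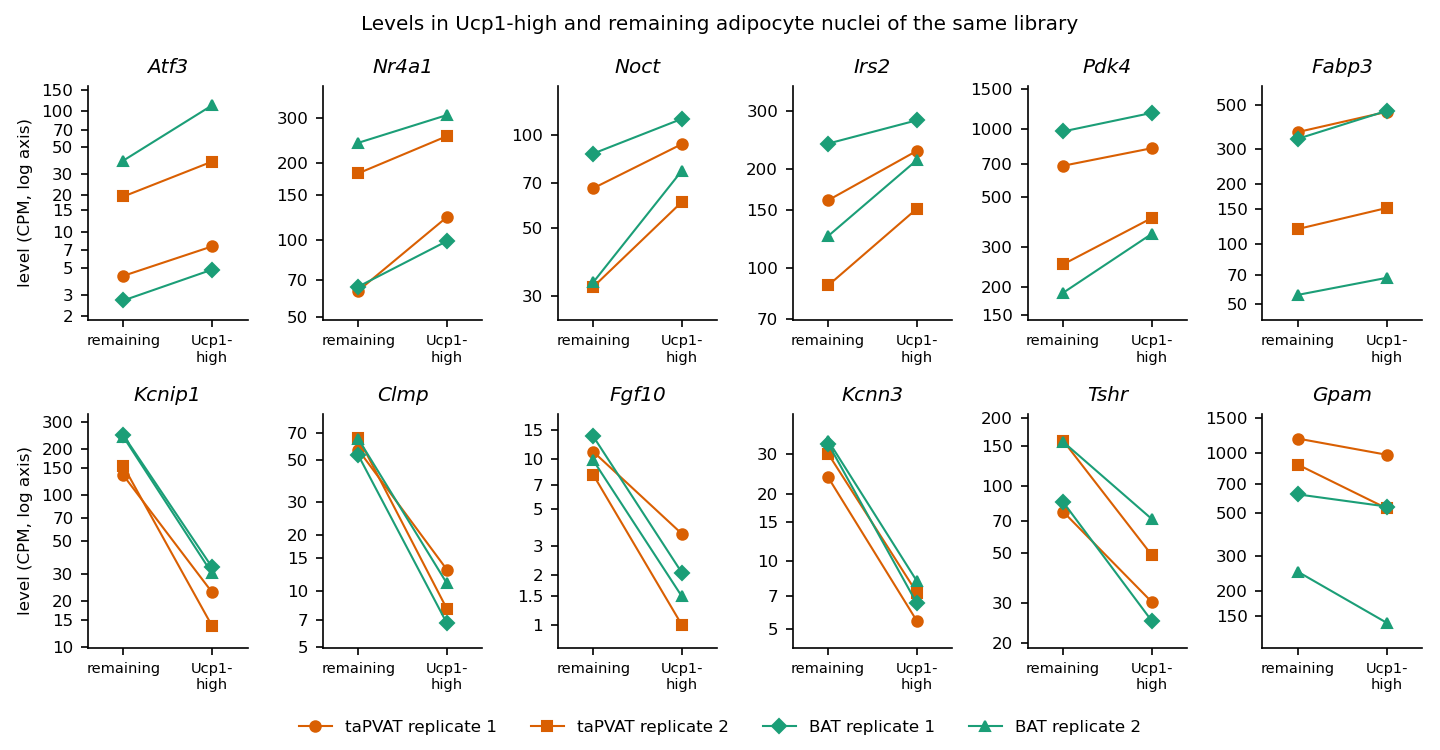
CPM on a log axis in Ucp1-high and remaining adipocyte nuclei of the same library, joined by a line, for genes that rose and genes that fell. Lines slope up in all 4 libraries for Atf3, Nr4a1, Noct, Irs2, Pdk4 and Fabp3 (top row) and down for Kcnip1, Clmp, Fgf10, Kcnn3, Tshr and Gpam (bottom row).

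Thermogenic genes other than Ucp1 were read as a list. Of 26 brown fat thermogenic genes tested, 14 rose, 0 fell and 12 did not pass, with a median log2 fold change of 0.12, while 6.47% of all genes rose. Fabp3, a fatty acid carrier of oxidative tissue, had the largest rise of the list, with 464, 152, 469 and 67.4 CPM against 367, 119, 339 and 55.3 CPM (0.42 ± 0.036, adjusted p = 1.3e-06). Cidea, a lipid droplet protein typical of brown fat, stood at 313, 307, 423 and 318 CPM against 271, 263, 363 and 295 CPM (0.24 ± 0.031, adjusted p = 8.7e-05). Ppargc1a stood at 3359, 15109, 1616 and 12759 CPM against 3057, 13563, 1462 and 11847 CPM (0.18, adjusted p = 3.6e-05). All 3 were higher in each library, and their states overlapped across libraries. Cox8b, a cytochrome oxidase subunit of brown fat and muscle, rose by 0.29 but lost its call in thinned and depth-matched nuclei.

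Other genes of the list that rose were Clstn3 by 0.24, Acot2 by 0.24, Ppara by 0.22 and the glycerol kinase gene Gk by 0.21, though Acot2 lost its call without any 1 of the 4 libraries. Adrb3, the β3-adrenergic receptor, did not pass, at 162, 302, 249 and 340 CPM against 161, 316, 248 and 352 CPM (0.02, adjusted p = 0.70). Prdm16, a regulator of brown fat identity, did not pass either (0.13, adjusted p = 0.052). Elovl3, a cold-induced fatty acid elongase, was too low to compare, at 0 UMIs in the Ucp1-high nuclei and at 0 in the remaining nuclei of 3 of 4 libraries. The count of rises was 7 among nuclei up to the median mitochondrial share, where 1 gene fell (2.32% and 2.02% of all genes), and 7 without nuclei that held UMIs of other cell types, where 0 fell (2.93% and 2.18% of all genes).

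Lists of fatty acid oxidation and of the respiratory chain had small median differences. Of 22 fatty acid oxidation genes 15 rose, 0 fell and 7 did not pass (median 0.13, with 6.47% of all genes higher). Among nuclei up to the median mitochondrial share 6 were higher and 1 lower, where 2.32% of all genes were higher and 2.02% lower. Cpt1b, the gate for fatty acids into mitochondria in muscle and brown fat, stood at 367, 322, 437 and 283 CPM against 308, 274, 356 and 271 CPM (0.26, adjusted p = 0.00013). Acadvl, the first dehydrogenase of long-chain oxidation, rose by 0.25, the isomerase gene Ech1 by 0.24 and the carnitine carrier gene Slc25a20 by 0.20. Of 28 nuclear-encoded genes of oxidative phosphorylation 18 rose, 0 fell and 10 did not pass (median 0.16). Cycs, cytochrome c, stood at 182, 154, 168 and 237 CPM against 150, 135, 144 and 208 CPM (0.27), while Cox5b rose by 0.27, Ndufv1 by 0.23, Cox4i1 by 0.22 and Atp5f1b by 0.21.

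The mitochondrially encoded genes moved with the mitochondrial share given above. Of 13, 12 rose and 0 fell (median 0.19), against 6.47% and 5.31% of all genes. Mt-co2, a cytochrome oxidase subunit, stood at 15716, 13724, 13149 and 22602 CPM against 13504, 11693, 11885 and 20584 CPM (0.23). With depth-matched or thinned nuclei 0 of 13 were called, with a median of 0.03 in the depth-matched fit. The nuclear-encoded list had 13 calls in depth-matched nuclei and 2 in thinned nuclei, where 5.4% and 3.59% of all genes were higher. Both settings also change which nuclei are Ucp1-high, and the part of depth was not tested on its own.

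Lipid synthesis and lipid use were read from separate lists. Of 18 genes of lipogenesis and triglyceride synthesis 6 fell (5.31% of all genes fell) and 1 rose, with a median of -0.03. The list had 4 lower and 3 higher in thinned nuclei (4.13% and 3.59% of all genes). In BAT alone it had 1 lower and 1 higher (2.85% and 2.5%), and in taPVAT alone 3 lower and 0 higher (2.04% and 2.61%). Gpam, the first acyltransferase of glycerolipid synthesis, stood at 982, 526, 537 and 138 CPM against 1186, 875, 618 and 251 CPM (-0.44, adjusted p = 0.00074). Acaca, acetyl-CoA carboxylase, which commits carbon to fatty acids, stood at 3043, 2013, 1801 and 947 CPM against 3747, 3062, 2133 and 1084 CPM (-0.29, adjusted p = 0.0006). Acly, which makes cytosolic acetyl-CoA, stood at 802, 951, 614 and 585 CPM against 933, 1452, 690 and 688 CPM (-0.26). These 3 were lower in 4 of 4 libraries, with overlap across libraries, and Acaca lost its call in thinned nuclei. The elongase gene Elovl6 fell by 0.38, malic enzyme Me1 by 0.25 and the transcription factor gene Srebf1 by 0.15 on the log2 scale. Dgat1, which makes triglyceride from diglyceride and is also used to re-esterify fatty acids, rose by 0.14. Elovl6, Me1 and Srebf1 lost their calls on leaving out 1 library (any but BAT replicate 2 for Elovl6, either replicate 2 library for Me1, any but taPVAT replicate 1 for Srebf1), and Acly was at -0.16 without taPVAT replicate 2.

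Of 14 lipolysis and lipid droplet genes 6 rose and 0 fell (median 0.12), against 6.47% and 5.31% of all genes. In taPVAT alone 5 rose and in BAT alone 2 (2.61% and 2.5% of all genes). The summed level of the list was 4932 against 5027 CPM in BAT replicate 2, the 1 library in which it was lower. Depth-matched nuclei gave 6 rises, thinned nuclei 4 and nuclei up to the median mitochondrial share 2 (5.4%, 3.59% and 2.32% of all genes). Plin2, a coat protein of droplets, stood at 252, 216, 305 and 248 CPM against 211, 180, 248 and 211 CPM (0.31, adjusted p = 6.7e-06). Plin5, which tethers droplets to mitochondria, rose by 0.28, the lipase inhibitor G0s2 by 0.24, the glycerol channel Aqp7 by 0.23, Lipe by 0.15 and Fitm2 by 0.13. Lipe is among the 6 adipocyte genes by which the rule chose the nuclei of both states. G0s2 was higher in 3 of 4 libraries and lost its call without BAT replicate 1, and Fitm2 lost its call without any library but taPVAT replicate 2. Of 10 fatty acid uptake genes 3 rose and 0 fell, with 1 lower in depth-matched nuclei (5.21% of all genes): Angptl4, an inhibitor of lipoprotein lipase, by 0.27, the fatty acid binding protein gene Fabp4 by 0.23 and the lipase gene Lpl by 0.15. Of 19 genes of glucose use and insulin signalling 5 rose and 0 fell (6.47% and 5.31% of all genes). Beside Irs2 and Pdk4 these were Pck1, which feeds glycerol synthesis in fat, at 1378, 952, 2033 and 1018 CPM against 1111, 794, 1784 and 914 CPM (0.28), the insulin-sensitive glucose carrier gene Slc2a4 (0.18) and Pdha1 (0.15). Slc2a4 lost its call without taPVAT replicate 1 and Pdha1 without BAT replicate 1.

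**Figure D3:**
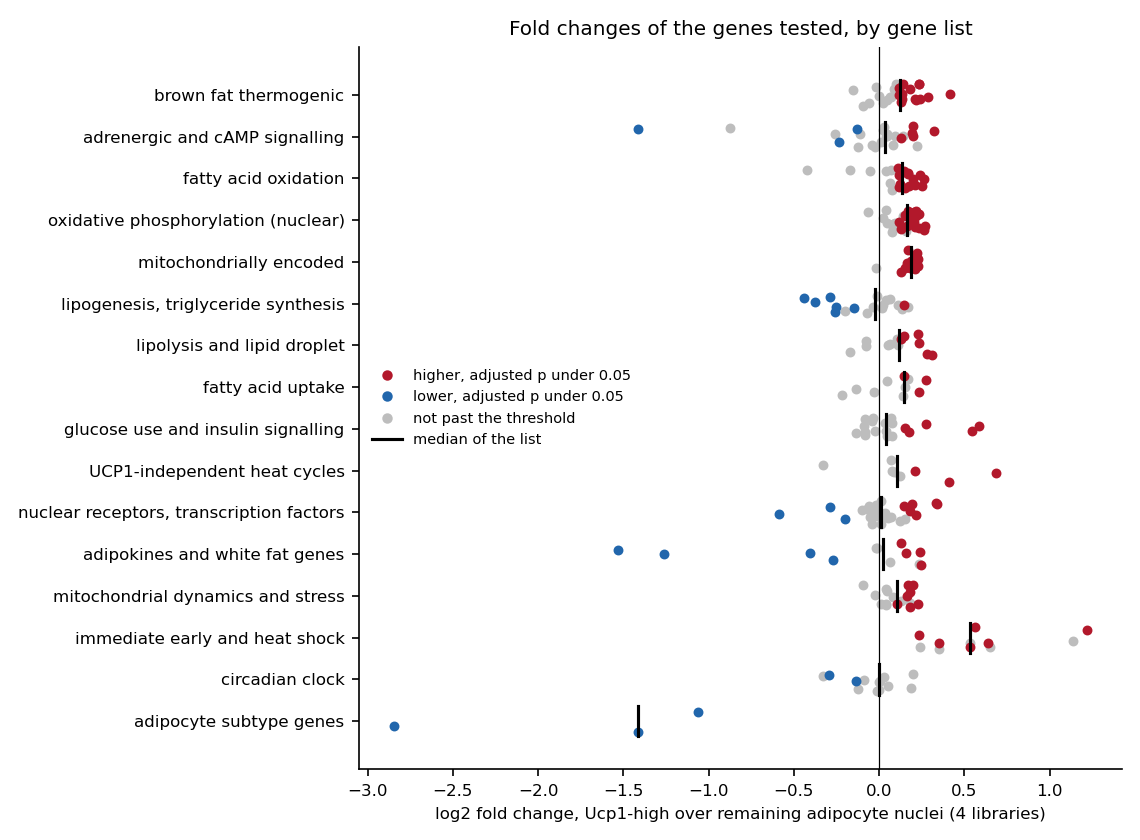
log2 fold change (Ucp1-high over remaining, 4 libraries) of each tested gene, in rows by gene list, with called and uncalled genes marked apart. Oxidation and respiration genes crowd slightly above 0, while the lipogenesis list straddles it with a median of -0.03.

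Of 24 genes of the adrenergic and cAMP pathway 5 rose and 3 fell (median 0.03), against 6.47% and 5.31% of all genes. In depth-matched nuclei 10 were higher and 2 lower, against 5.4% and 5.21%. Thinned nuclei gave 6 and 2, against 3.59% and 4.13%. Nuclei up to the median mitochondrial share gave 2 and 1, against 2.32% and 2.02%. Without nuclei that held UMIs of other cell types the counts were 3 and 2, against 2.93% and 2.18%, and without nuclei that held a Kcnip1 UMI they were 2 and 3, against 5.0% and 3.64%. Sik1, a kinase that cAMP induces and that dampens CREB coactivators, stood at 75.6, 37.0, 54.3 and 29.7 CPM against 58.1, 29.6, 45.6 and 28.3 CPM (0.32, adjusted p = 0.00051). Gnas, the stimulatory G protein, rose by 0.20, the adenylyl cyclase gene Adcy9 by 0.20, and the phosphodiesterase genes Pde4a and Pde3a by 0.19 and 0.13. Those that fell were the thyrotropin receptor gene Tshr, described below, the cyclase gene Adcy5 by 0.24 and the kinase subunit gene Prkacb by 0.13 on the log2 scale. Adcy5 had a log2 fold change of 0.11 once nuclei with a Kcnip1 UMI were left out, and did not pass there. Leaving out 1 library ended the calls of Adcy9 (either taPVAT library), Adcy5 (BAT replicate 1), Pde3a (either BAT library), Pde4a (taPVAT replicate 1) and Prkacb (any but taPVAT replicate 2). Of 8 tested genes of heat cycles that do not use UCP1, 3 rose: Alpl and Ckb, whose products take part in creatine cycling, by 0.68 and 0.41, and Gk. Alpl is not among the 15 largest rises, since its mean level was below 10 CPM in both states or it did not rise in each library.

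Among 26 nuclear receptors and brown fat transcription factors 6 rose and 3 fell (median 0.01), against 6.47% and 5.31% of all genes. Depth-matched nuclei gave 6 and 2, against 5.4% and 5.21%, and thinned nuclei 4 and 2, against 3.59% and 4.13%. Up to the median mitochondrial share the counts were 3 and 1, against 2.32% and 2.02%. Without nuclei that held a Kcnip1 UMI they were 5 and 1, against 5.0% and 3.64%. Cebpb, a cAMP-inducible factor, stood at 146, 302, 147 and 368 CPM against 115, 254, 118 and 311 CPM (0.33, adjusted p = 4.9e-06). Irf4, a partner of PGC-1α that fasting and cold induce, stood at 160, 130, 164 and 132 CPM against 129, 116, 145 and 91.0 CPM (0.34). The corepressor gene Nrip1 (RIP140), known to repress Ucp1 and oxidative genes in adipocytes, stood at 52.0, 69.0, 63.1 and 70.3 CPM against 76.0, 104, 97.7 and 120 CPM. It fell by 0.59 on the log2 scale (SE 0.043, adjusted p = 2.4e-07), and every Ucp1-high value lay below every remaining value. Ppara, Tle3, Rxrg and Thra rose by 0.15 to 0.22, and Zbtb16 and Rxra fell by 0.29 and 0.20. Leaving out 1 library ended the calls of Tle3 (either taPVAT library), Rxrg (replicate 1 of either tissue), Thra (any but BAT replicate 2) and Rxra (any of the 4).

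Of 12 adipokine and white fat genes 4 rose and 4 fell, against 6.47% and 5.31% of all genes. Nnat, neuronatin, stood at 34.4, 17.5, 34.2 and 21.9 CPM against 93.7, 29.7, 92.7 and 45.6 CPM (-1.26, adjusted p = 2.8e-08). Lep, leptin, stood at 6.13, 50.0, 6.39 and 70.0 CPM against 10.8, 59.8, 9.53 and 96.1 CPM (-0.40). Slc7a10, an amino acid carrier enriched in white fat, fell by 1.53 and Agt, angiotensinogen, by 0.27 on the log2 scale. Slc7a10 is not among the 15 largest falls, since its mean level was below 10 CPM in both states or it did not fall in each library. These 4 calls were lost when nuclei with a Kcnip1 UMI were left out, where the values were -0.05 for Nnat, -0.03 for Lep, -0.67 for Slc7a10 and -0.16 for Agt. The risers were the retinol carrier Rbp4 (0.24), chemerin Rarres2 (0.24), Vegfa (0.16) and adipsin Cfd (0.13). The list held 1 rise in depth-matched nuclei and 1 in thinned nuclei (5.4% and 3.59% of all genes). It held 2 up to the median mitochondrial share, 1 without nuclei that held UMIs of other cell types and 5 without Kcnip1 nuclei. The shares of all genes there were 2.32%, 2.93% and 5.0%. Cfd was at -0.01 in depth-matched and -0.09 in thinned nuclei and lost its call without either taPVAT library, and Agt lost its call without any library but taPVAT replicate 1. Of 17 genes of mitochondrial dynamics and stress 7 rose and 0 fell (6.47% and 5.31% of all genes), among them Atf4 (0.23), the ADP/ATP carrier Slc25a4 (0.20) and Ucp3 (0.18, lost without BAT replicate 1). In depth-matched nuclei 4 of them rose and in thinned nuclei 3 (5.4% and 3.59% of all genes). The count was 2 up to the median mitochondrial share, 1 without other cells' UMIs and 6 without Kcnip1 nuclei (2.32%, 2.93% and 5.0%). Of 13 clock genes 0 rose and 2 fell (6.47% and 5.31% of all genes), Dbp by 0.30 and Per3 by 0.13. Both calls were lost without BAT replicate 1, that of Per3 also without taPVAT replicate 1.

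The falls were steeper than the rises. Kcnip1, a calcium sensor that binds voltage-gated potassium channels, stood at 22.9, 13.7, 33.4 and 30.4 CPM in Ucp1-high nuclei and at 134, 154, 246 and 240 CPM in the remaining nuclei. The states did not overlap, and the log2 fold change was -2.85 ± 0.074 (adjusted p = 4.0e-13). Clmp, an adhesion molecule, stood at 13, 8.0, 6.70 and 11 CPM against 56.7, 65.7, 53.0 and 64.7 CPM (-2.55 ± 0.100, adjusted p = 1.4e-10). Kcnn3, a calcium-activated potassium channel, stood at 5.42, 7.25, 6.49 and 8.17 CPM against 23.7, 30.2, 33.5 and 34.5 CPM (-2.14 ± 0.089, adjusted p = 2.1e-10). Tshr stood at 30.4, 49.2, 25.1 and 71.3 CPM against 76.8, 159, 84.9 and 157 CPM (-1.41 ± 0.076, adjusted p = 8.0e-09). None of these 4 overlapped between states. Ca3, carbonic anhydrase 3, abundant in white fat, stood at 112, 52.7, 90.8 and 107 CPM against 214, 123, 246 and 191 CPM (-1.06) and did not overlap either.

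Kcnip1, Tshr and Ca3 lay below the endothelial background in the Ucp1-high nuclei, at 0.12 to 0.24, 0.46 to 0.62 and 0.49 to 0.72 times its level. After thinning, 1.91%, 1.54%, 2.26% and 2.05% of Ucp1-high nuclei held a Kcnip1 UMI (exact binomial 95% intervals, counting error only: 1.44 to 2.48, 0.845 to 2.57, 1.71 to 2.93 and 1.47 to 2.80), against 3.80%, 3.41%, 5.06% and 4.98% of endothelial barcodes and 6.20%, 6.39%, 8.90% and 7.47% of remaining nuclei. Unthinned, the shares were 3.86%, 3.96%, 5.13% and 4.16% of Ucp1-high nuclei. Kcnip1 in the Ucp1-high nuclei was therefore below the endothelial barcodes in each library. Those barcodes were not cleared of adipocyte UMIs and held Kcnip1 at 63.7% to 75.6% of its level in the remaining nuclei. Their level is thus not a floor for every barcode. Whether the residual level in Ucp1-high nuclei is expression was not tested.

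The other large falls included the growth factor gene Fgf10 (-2.28), Otulinl (-2.19), Anxa1 (-1.65), Pid1 (-1.63), Abi3bp (-1.62), the adaptor gene Grb10 (-1.47) and Crispld2 (-1.44). Fgf10 acts on fat cell precursors and was at 1.0 to 3.54 CPM in the Ucp1-high nuclei. Leaving out all nuclei with a Kcnip1 UMI reduced several of these falls, to -1.67 for Clmp, -1.05 for Kcnn3, -0.89 for Tshr, -0.92 for Anxa1, -0.79 for Otulinl, -0.49 for Crispld2 and -0.35 for Ca3, all still called. Pid1, Abi3bp and Grb10 were at -1.15, -1.13 and -1.05 there and Fgf10 at -2.02, also still called. All of these falls were thus smaller among nuclei without Kcnip1 UMIs.

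Some markers of other cell types fell, where 5.31% of all genes fell and 6.47% rose. The summed fibroblast markers stood at 107, 90.5, 61.0 and 102 CPM against 137, 127, 109 and 141 CPM, and 4 of 6 tested fell, among them Fbn1 (-0.90) and Col3a1 (-0.56), while Pdgfra was at 0 by the rule. Of 6 mural markers 2 fell, Notch3 (-1.0) and Pdgfrb (-0.75), with sums of 49.1, 26.7, 38.5 and 33.8 CPM against 48.9, 30.1, 52.4 and 43.7 CPM and Myh11 at 0. Fibroblast and mural falls numbered 5 and 3 in depth-matched nuclei and 5 and 2 in thinned nuclei (5.21% and 4.13% of all genes). Up to the median mitochondrial share they numbered 0 and 0 (2.02% of all genes). Vascular endothelial, lymphatic and T or NK lymphocyte markers had 0 calls of 5, 4 and 4. Of 2 Schwann cell markers 1 fell, Scn7a (-0.95), and of 3 mesothelial markers 1 fell, Wt1 (-0.91). Scn7a lost its call without taPVAT replicate 1 (-0.61) and Wt1 without either BAT library (-0.88). Notch3 lost its call without BAT replicate 1 and Pdgfrb without either BAT library. Of 7 myeloid markers 1 rose, Cd68 (0.33), which lost its call without any library but BAT replicate 1. Col6a6 (-1.49) and Lama2 (-1.41), matrix genes among the 15 largest falls, lost their calls, at -0.77 and -0.21, when nuclei with UMIs of other cell types were left out. The other 13 of the 15 largest falls kept their calls there, among them Kcnip1 at -3.06, Clmp at -2.61, Fgf10 at -2.02 and Tshr at -1.41.

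All 4 erythroid genes fell. Their sum was 126, 809, 79.4 and 237 CPM against 185, 2269, 170 and 1160 CPM, with Hbb at -1.46, Hba-a2 at -1.39, Hba-a1 at -1.38 and the haem synthesis gene Alas2 at -0.68, the last lost without any library but taPVAT replicate 1. The globin genes have near-identical copies between which the counting may split reads, so their single values are uncertain. Globin RNA comes from red blood cell precursors, and its part in the other differences was not tested.

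Levels along the whole range of Ucp1 share were read in deciles of adipocyte nuclei, as a description. Decile 10 holds the Ucp1-high nuclei, and nuclei without a Ucp1 UMI are tied, with ties that run into decile 2 in taPVAT replicate 1 and into decile 3 in the replicate 2 libraries. Kcnip1 ran down from 409, 397, 1136 and 512 CPM in decile 1 to 46.4, 51.3, 43.7 and 76.5 CPM in decile 9 and 22.8, 13.7, 33.3 and 30.4 CPM in decile 10. Most of its fall therefore lay below the Ucp1-high boundary. Nr4a1 ran up from 45.7, 166, 36.9 and 212 CPM in decile 1 to 83.6, 202, 92.4 and 263 CPM in decile 9 and 123, 254, 98.8 and 307 CPM in decile 10. Irs2 stepped up between deciles 9 and 10, from 191 to 226, 103 to 151 and 148 to 212 CPM, except in BAT replicate 1, where it was 277 and 279 CPM. Acaca was highest in decile 2 or 3 (4036, 3465, 2236 and 1202 CPM) and lower in decile 10. The 13 mitochondrially encoded genes together were high at both ends, with 95249 CPM in decile 1, 58918 CPM in decile 7 and 72853 CPM in decile 10 of taPVAT replicate 1, so their level did not run in 1 direction with Ucp1.

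**Figure D4:**
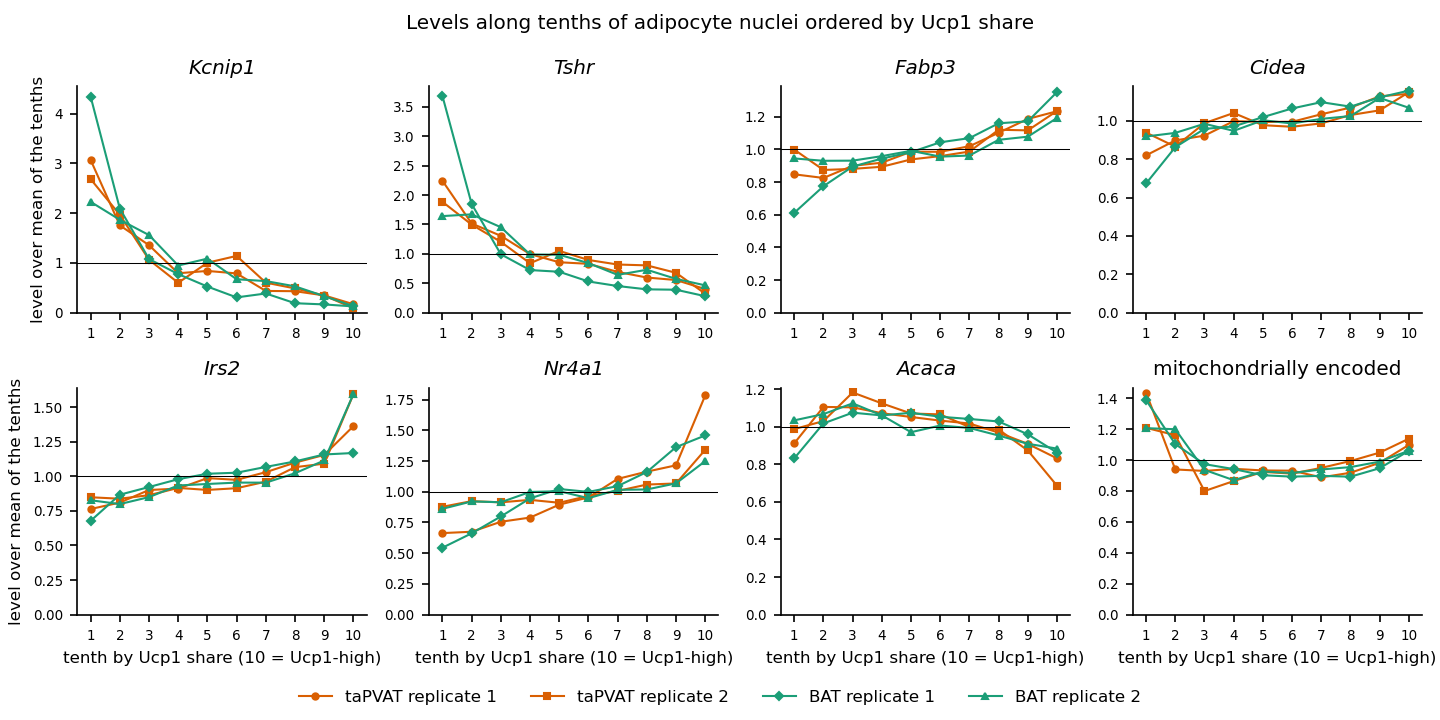
Level relative to the mean over deciles, for selected genes and lists, by decile of Ucp1 share, with a line for each library. In all 4 libraries Kcnip1 is highest in decile 1 and lowest in decile 10, Nr4a1 and Irs2 are highest in decile 10, and the mitochondrially encoded genes are high at both ends.

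The Ucp1-high nuclei also differed among themselves. Their upper and lower parts by Ucp1 share, equal in number, held summed immediate early and heat shock RNA of 383 and 317 CPM in taPVAT replicate 1, 812 and 656 in taPVAT replicate 2, 328 and 287 in BAT replicate 1 and 1641 and 965 CPM in BAT replicate 2. The upper part was higher in all 4 libraries. The summed mitochondrially encoded genes were also higher in the upper part in each library, with 76930 against 69755 CPM in taPVAT replicate 1 and 98781 against 95672 CPM in BAT replicate 2. The lipogenesis list was slightly lower in the upper part, with 13533 against 14087 CPM in taPVAT replicate 1 and 7842 against 7995 CPM in BAT replicate 2. Other lists went both ways. The upper part was lower for thermogenic genes in BAT replicate 1 (18178 against 18323 CPM) and higher in the other libraries (28673 against 28309 CPM in BAT replicate 2). For fatty acid oxidation it was lower in taPVAT replicate 2 (13107 against 13178 CPM) and higher in the other libraries (12438 against 12345 CPM in BAT replicate 2). These are descriptions, since Ucp1 set the parts.

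The same contrast was read in each tissue. In taPVAT 628 genes differed (4.65% of those tested; 352 rose, 2.61%, and 276 fell, 2.04%). In BAT 722 differed (5.35%; 337 rose, 2.5%, and 385 fell, 2.85%). The 359 genes called in both were 57.2% of the taPVAT calls and 49.7% of the BAT calls, and all 359 had the same sign. The tissues rest on different libraries, but both contrasts came from the same fit of all 8 sums and share its estimate of the spread. The calls of the 2 tissues are therefore not independent. Of taPVAT calls 98.9%, and of BAT calls 97.6%, had the same sign in the other tissue, against 66.5% of all tested genes. Kcnip1, Clmp, Tshr, Nrip1, Irs2, Sdc4, Nr4a1, Fabp3 and Pck1 passed in each tissue. Of the 11 immediate early and heat shock genes 3 rose in taPVAT and 9 in BAT, and whether the tissues differ there is covered by the test of the difference. As given above, Fos and Fosb were lower and Egr1 nearly equal in BAT replicate 1. Part of the BAT count therefore rests on BAT replicate 2. Without taPVAT replicate 1 or 2 the BAT count was 1129 or 1111, and without BAT replicate 1 or 2 it was 290 or 229.

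In edgeR's test of the difference of this contrast between the tissues, 559 genes had an unadjusted p under 0.05. That is a smaller share of the genes tested than 0.05. No gene passed after adjustment: the count of calls was 0 of 13502 (0.0%), the smallest adjusted p was 0.228, and DESeq2 called 0. Without taPVAT replicate 1 or 2 the count was 37 or 46, and without BAT replicate 1 it was 7. The genes with the smallest p are therefore values only. Adcy9 stood at 468, 355, 942 and 520 CPM in Ucp1-high nuclei against 387, 264, 940 and 536 CPM, so that its log2 fold change was 0.39 in taPVAT and 0.03 in BAT. Ntrk3, a neurotrophin receptor, stood at 713, 1432, 1166 and 2066 CPM against 556, 1021, 1090 and 1943 CPM (0.46 and 0.15). Impdh1, an enzyme of guanine nucleotide synthesis, stood at 59.2, 45.7, 171 and 95.8 CPM against 42.7, 28, 158 and 91.6 CPM (0.60 and 0.15).

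Within the Ucp1-high nuclei taPVAT was compared with BAT directly. Of 11213 genes tested 0 (0.0%) passed in edgeR and 8 in DESeq2. An unadjusted p under 0.05 by edgeR was reached by 149, a smaller share of those tested than 0.05. Leaving out taPVAT replicate 1, taPVAT replicate 2, BAT replicate 1 or BAT replicate 2 gave 6, 11, 28 or 56 calls, with the lone library assumed to vary like the other tissue's pair. With 2 libraries a tissue, the values of the 5 genes of smallest p show how far the tissues stood apart. Foxp2, a transcription factor, stood at 480 and 272 CPM in taPVAT and 56.0 and 22.3 CPM in BAT. Slit2, a guidance and secreted signalling protein, stood at 63.2 and 53.7 CPM against 16.8 and 11.3 CPM, and the acid-sensing channel gene Asic2 at 81.6 and 16.7 CPM against 1.55 and 2.04 CPM. Ush1c, a scaffold protein, stood at 13.9 and 12.0 CPM against 1.44 and 1.86 CPM, while Rcan2, a calcineurin regulator, was lower in taPVAT, at 14.4 and 13.2 CPM against 42.2 and 39.5 CPM. For these 5 the tissues did not overlap, but they were picked by smallest p. The share of all tested genes without overlap between tissues was not computed. The adjusted p was 1.0 for each.

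**Figure D5:**
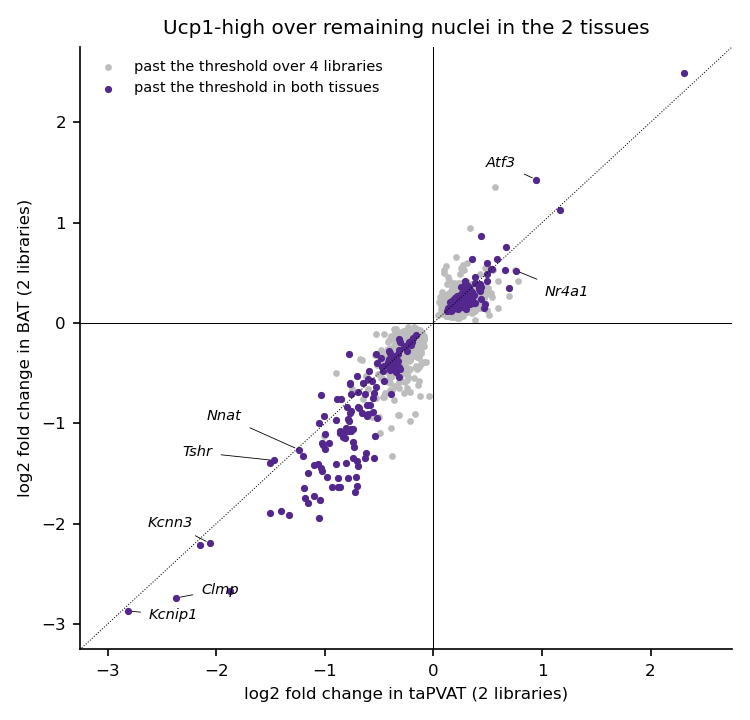
log2 fold change of Ucp1-high over remaining nuclei in BAT (vertical axis) against taPVAT (horizontal axis), for genes of 10 CPM or more in a state; grey points are the 1287 called over 4 libraries and dark points the 318 called in both tissues. The dark points lie in the lower left and upper right quadrants, with Kcnip1 and Clmp at the far lower left and Atf3 labelled at the upper right; the unlabelled dark point farthest to the upper right is Thbs1.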

How the data were processed

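Nuclei of frozen fat were run on 10x Chromium 3' chemistry, per the labels' protocols. The values are UMI counts per gene and barcode, as deposited by the authors, made with Cell Ranger 7.1.0 on build Rnor_6.0 per the submitters' processing notes. Whether intronic reads were counted is not given in the sources used here. Libraries held 157446484, 63654436, 158140959 and 92939355 UMIs, and Ucp1-high sums 4008492 to 9736462, with 13.3% to 14.7% in the single locus AC134224.3.

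Counts were summed by library and state into 8 sums (Python 3.11.15, numpy 2.4.6, scipy 1.17.1, pandas 2.3.3) and fitted with edgeR 4.0.16 (limma 3.58.1, R 4.3.3): TMM, filterByExpr, quasi-likelihood test, library as block, Benjamini-Hochberg over all genes tested. Ucp1 was left out. Nuclei were not treated as replicates. The members and gene lists were chosen with earlier results of these data known. Named genes were the 15 largest rises and 15 largest falls among genes called, moved the same way in 4 libraries and at 10 CPM or more in a state, plus the 5 of smallest p in each tissue test; Ca3 and the list genes were named from the lists. Alternatives covered normalization, DESeq2 1.42.0, filters, the size of the Ucp1-high group, depth, mitochondrial share, other-cell UMIs, Kcnip1 UMIs, the block and each library left out. The test was tested on simulated data. Cd36, Malat1, Mlxipl, Pecam1 and Hspa1a were not analysed here. No doublet caller was run; the 7 genes at 0 UMIs and a run without the deepest 5% of nuclei stand in for it.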

Additional observations from a re-analysis of the deposited data

Results flagged for a closer look

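Among the genes named for the smallest p of the difference between tissues, 2 moved in opposite directions in all 4 libraries. Tiam2, an activator of the small GTPase Rac, stood at 171 and 110 CPM in Ucp1-high nuclei of taPVAT against 190 and 143 CPM in the remaining nuclei, and at 138 and 38.4 CPM in BAT against 119 and 33.8 CPM. Its log2 fold change was -0.20 in taPVAT and 0.26 in BAT, a difference of -0.458 (adjusted p = 0.321 by edgeR's quasi-likelihood test). Vat1l stood at 66.7 and 86.7 CPM against 84.8 and 114 CPM in taPVAT, and at 33.2 and 21.0 CPM against 31.5 and 18.2 CPM in BAT. Its log2 fold change was -0.33 in taPVAT and 0.17 in BAT, a difference of -0.495 (adjusted p = 0.440). Neither difference passed the test over all genes.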

How the results depend on the processing

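Over 4 libraries, refits called 843 genes in thinned nuclei, 543 up to the median mitochondrial share, 584 without nuclei with other cell types' UMIs, 5 with no library block and 67 with the replicate block in place of the library, with 975 to 1325 on leaving out 1 library. For taPVAT the counts were 190 by DESeq2, 402 with the top 5%, 390 depth-matched, 224 thinned, 126 up to the median mitochondrial share and 196 without other cells' UMIs. For BAT they were 237 by DESeq2, 410 with the top 5%, 408 thinned, 157 up to the median mitochondrial share, 471 with 10 adipocyte UMIs and 220 without other cells' UMIs, with 229 to 1129 on leaving out 1 library. The difference between tissues gave 37 calls with no filter, 3 without Kcnip1 nuclei and 0 to 46 on leaving out 1 library. Within Ucp1-high nuclei, taPVAT over BAT gave 57 calls with no filter, 8 by DESeq2, 106 with the replicate block (among them the 5 genes named in that comparison) and 6 to 56 on leaving out 1 library. The causes were not tested. Replicate numbers are shared between tissues, but no label says that a number marks a rat or day (the correlation of same-numbered deviations over 11213 genes was 0.696).

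The mitochondrial difference was -0.136 percentage points in depth-matched nuclei. The shares with a UMI differed by -6.43 points for Kcnip1, -10.4 for Tshr and -8.65 for Ca3 unthinned, against -5.30, -5.30 and -5.22 thinned. Signs turned for Adrb3 (-0.020 with no filter, -0.014 up to the median mitochondrial share, -0.041 without other cells' UMIs, -0.0026 against remaining nuclei with a Ucp1 UMI), Adcy5 (0.11 without Kcnip1 nuclei), Cfd (-0.011 depth-matched, -0.086 thinned) and Egr1 (-0.10 thinned). Leaving out 1 library gave -0.41 to 1.37 for Fos, -0.46 to 2.02 for Fosb and -0.47 to 1.0 for Egr1. Over single genes and alternatives, 2130 values kept direction and side of the threshold, 481 lost it, 57 gained it and 11 reversed. Depth limits genes of few UMIs per library.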

Other observations

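Outside the rule for named genes, and chosen after its values were seen, Thbs1, the matrix protein thrombospondin-1, stood out in the replicate 2 libraries. It stood at 0.118, 7.50, 0.722 and 39.2 CPM in Ucp1-high nuclei against 0.175, 1.18, 0.107 and 7.35 CPM, from 1, 30, 7 and 211 UMIs. It was higher in 3 of 4 libraries (log2 fold change 2.45, adjusted p = 9.3e-07 by edgeR's quasi-likelihood test).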
